A study of Mus musculus with 48 samples.

Results

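Ttc9 and Dab1 were described here as a pair of genes outside the core clock that were chosen for the size of their 24 h rhythm in mouse epidermal stem cells (EpSCs). The members were all probe sets whose annotation gave exactly 1 gene symbol and that symbol was Ttc9 or Dab1, which found 7 of 45141 probe sets, 2 for Ttc9 and 5 for Dab1, or 2 of the 17097 genes with a probe set. RNA of EpSCs from the epidermis of wild type female C57B6/J mice was measured on 1-colour Affymetrix arrays. Aged mice were 102 to 116 weeks old and young mice were 8 weeks old, and no treatment is named for either age. Cells were taken every 4 h from ZT0 (conventionally lights-on) to ZT20, from 4 mice at each of the 6 times and ages, which makes 24 arrays per age and 48 in all. The sources used here do not give the light schedule, the way the cells were isolated, or any date of harvest or hybridisation.

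Ttc9 encodes a small protein built of tetratricopeptide repeats, helical repeats through which proteins bind other proteins, and was described in human breast cancer cells as a hormone-regulated gene. Dab1 encodes the adaptor of the reelin pathway: reelin, a secreted protein, binds the lipoprotein receptors Vldlr and Lrp8, Dab1 sits on the tails of these receptors, and the kinases Fyn and Src phosphorylate it. The pathway is best known for guiding migrating neurons. In the circadian clock, Arntl with Clock or Npas2 activates E-box genes such as Dbp and the Per genes, and the products of Per and Cry genes feed back on the activators. Dbp, an output transcription factor with a large and sharp rhythm, served as the marker of clock phase.

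The array values are log2 probe set summaries. Array medians lay between 4.78 and 5.04, and the lowest correlation between any 2 arrays was 0.963. For tests across genes, the probe set of highest mean stood for each gene and the lowest 25% of genes (mean log2 under 3.96, called dim) were left out, which left 12823 genes with both members among them. The basal keratinocyte markers Krt5 and Krt14 stood at 12.7 and 12.4 in aged and at 12.7 and 12.4 in young arrays. Of the hair follicle bulge markers, Krt15 was above 99.6% of genes, while Cd34 (3.33 and 3.28) and Lgr5 (3.91 and 3.53) were under the dim limit at both ages. Sox9, Nfatc1, Postn and Npnt stood above 80.6% of genes or more, and Lhx2 above 31.1%. The differentiation keratins Krt1 and Krt10 were also high (11.7 and 11.7 in aged, 11.6 and 11.7 in young). Of the other markers of differentiated (suprabasal) cells, Sbsn, Krtdap and Dsg1a stood above 88.7% of genes or more. Lor stood above 59.9% and Ivl above 57.7%, and Flg was under the dim limit (3.07 in aged and 3.02 in young arrays). The basal, most bulge and most suprabasal markers were thus high, and Cd34, Lgr5 and Flg were not.

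Ttc9 lies on chromosome 12 at 81631249 to 81667557 and Dab1 on chromosome 4 at 103619500 to 104744844 (GRCm38). Because both genes follow the time of day, the 250 bases before their annotated starts were searched on both strands for clock elements. The windows are those of RefSeq (GRCm38.p6, plus strand), with each match to the GC box GGGCGG or its reverse complement in capitals.

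Ttc9, chr12:81630999-81631248: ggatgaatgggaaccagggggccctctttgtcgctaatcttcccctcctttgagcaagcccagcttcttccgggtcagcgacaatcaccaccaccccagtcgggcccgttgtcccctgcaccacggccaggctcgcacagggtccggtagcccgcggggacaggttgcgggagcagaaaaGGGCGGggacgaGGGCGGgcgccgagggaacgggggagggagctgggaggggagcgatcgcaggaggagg
Dab1, first start, chr4:103619250-103619499: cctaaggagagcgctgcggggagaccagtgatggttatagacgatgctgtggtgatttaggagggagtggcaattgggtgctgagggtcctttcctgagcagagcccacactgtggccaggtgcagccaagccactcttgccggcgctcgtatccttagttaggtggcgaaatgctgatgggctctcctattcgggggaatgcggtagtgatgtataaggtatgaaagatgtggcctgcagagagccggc
Dab1, second start, chr4:104367288-104367537: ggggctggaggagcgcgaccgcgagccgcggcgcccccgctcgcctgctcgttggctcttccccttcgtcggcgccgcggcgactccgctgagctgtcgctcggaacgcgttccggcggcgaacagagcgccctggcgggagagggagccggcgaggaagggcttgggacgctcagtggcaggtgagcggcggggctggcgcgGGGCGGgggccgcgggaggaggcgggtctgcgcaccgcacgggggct

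None of the 3 windows held the E-box CACGTG, its variant CACGTT, the D-box TTATGTAA, the ROR and Rev-erb element AGGTCA or the cAMP response element TGACGTCA. These were found in 6.02%, 3.85%, 0.819%, 14% and 1.55% of the 32851 windows of all genes, and none of these motifs contains another. The window of Ttc9 held 2 GC boxes, the one at the second Dab1 start held 1, and the one at the first Dab1 start held 0, against 32.7% of all windows with at least 1. The windows were 68.0% G and C for Ttc9, 56.4% at the first and 78.0% at the second start of Dab1 (median of all windows 52.4%). The windows of Dbp, Npas2 and Arntl also held none of the 5 clock and cAMP elements, so the search says only which letters these windows hold.

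Ttc9 was highest at ZT0 and lowest at ZT12 at both ages, and its daily range was narrower in aged cells. At ZT0 the 4 arrays of its main probe set, 1455649_PM_at, read 7.81, 7.75, 7.08 and 7.41 in aged and 7.65, 7.10, 8.29 and 8.04 in young cells. At ZT4 they read 6.06, 6.75, 7.12 and 6.75 in aged and 7.45, 7.0, 7.07 and 7.25 in young cells. The ages overlapped at both times. At ZT8 Ttc9 read 5.67, 5.61, 5.72 and 5.76 in aged and 5.33, 5.62, 5.23 and 5.52 in young cells, which again overlapped. At ZT12 it read 6.04, 5.70, 5.22 and 5.36 in aged and 5.0, 5.11, 4.97 and 5.13 in young cells, and at this low point of the day every aged array lay above every young one. Such a separation with aged higher was found at ZT12 in 3.14% of the 12823 genes. The members were chosen on 24 h amplitude, so a separation near the peak or trough describes that rhythm and is not a test. At ZT16 the arrays read 5.98, 6.32, 6.29 and 6.07 in aged and 5.67, 5.72, 5.85 and 5.92 in young cells, again without overlap (6.24% of genes at this time). At ZT20 they read 6.83, 7.07, 6.63 and 6.89 in aged and 7.17, 7.26, 6.96 and 7.50 in young cells, with overlap. The aged mean of Ttc9 was thus below the young one at ZT20, ZT0 and ZT4 (by 0.37, 0.26 and 0.52 on the log2 scale) and above it at ZT8, ZT12 and ZT16 (by 0.26, 0.53 and 0.38).

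In order of level, the aged group means of Ttc9 ran ZT0 (7.51 ± 0.34, SD, n = 4), ZT20 (6.86 ± 0.18), ZT4 (6.67 ± 0.44), ZT16 (6.17 ± 0.17), ZT8 (5.69 ± 0.065) and ZT12 (5.58 ± 0.37). Neighbours whose arrays overlapped were ZT20 with ZT4, ZT4 with ZT16, and ZT8 with ZT12. The young means ran in the same order, ZT0 (7.77 ± 0.52), ZT20 (7.22 ± 0.22), ZT4 (7.19 ± 0.20), ZT16 (5.79 ± 0.12), ZT8 (5.43 ± 0.18) and ZT12 (5.05 ± 0.080). In young cells ZT0 overlapped ZT20 and ZT20 overlapped ZT4, while ZT4, ZT16, ZT8 and ZT12 were apart from each other.

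Dab1 was high from ZT20 to ZT4 in young cells and lowest at ZT16, and the aged arrays of ZT20 to ZT4 were lower or more scattered. At ZT0 its main probe set, 1435577_PM_at, read 8.28, 8.28, 7.89 and 8.08 in aged and 8.57, 8.97, 8.92 and 8.57 in young cells. All aged arrays lay below all young ones, as in 2.75% of genes at ZT0. At ZT4 Dab1 read 7.21, 7.88, 8.65 and 8.27 in aged and 8.37, 8.66, 8.89 and 8.79 in young cells, where the aged arrays spread widely and overlapped the young. At ZT8 it read 8.15, 8.06, 7.99 and 7.98 in aged and 8.13, 8.06, 7.93 and 8.10 in young cells. At ZT12 it read 7.48, 7.68, 7.04 and 7.42 in aged and 7.37, 7.55, 7.63 and 7.19 in young cells. The ages were mixed at both of these times, with means that differed by -0.01 and -0.03. At ZT16 the arrays read 7.73, 7.13, 7.42 and 6.57 in aged and 6.97, 6.81, 6.93 and 6.75 in young cells, with 3 aged arrays above the young and 1 below. At ZT20 they read 7.68, 7.90, 7.22 and 7.34 in aged and 8.38, 8.22, 8.19 and 8.39 in young cells, without overlap (3.24% of genes at this time with aged lower).

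The aged means of Dab1 ran ZT0 (8.13 ± 0.19, SD, n = 4), ZT8 (8.04 ± 0.080), ZT4 (8.00 ± 0.61), ZT20 (7.53 ± 0.31), ZT12 (7.40 ± 0.27) and ZT16 (7.21 ± 0.49), and every neighbouring pair overlapped. The young means ran ZT0 (8.76 ± 0.22), ZT4 (8.68 ± 0.22), ZT20 (8.30 ± 0.10), ZT8 (8.06 ± 0.087), ZT12 (7.43 ± 0.20) and ZT16 (6.87 ± 0.10). There only ZT0 with ZT4 and ZT4 with ZT20 overlapped. The ages thus separated at 2 of 6 times for each gene, which describes members chosen on their 24 h amplitude and is not a test. From ZT0 to ZT20, the share of all genes with the aged arrays all below the young ones was 2.75%, 8.32%, 2.32%, 3.24%, 5.84% and 3.24%, and that with the aged arrays all above was 2.93%, 6.14%, 7.72%, 3.14%, 6.24% and 3.28%. The mean SD within a group of Dab1 was 0.326 in aged and 0.155 in young cells, and that of Ttc9 was 0.260 and 0.220; the difference in spread was not tested. Each of the other Dab1 probe sets also had the larger mean SD within a group in aged cells (0.311 to 0.404, against 0.180 to 0.249 in young), while the second Ttc9 probe set had 0.243 in aged and 0.287 in young cells. A larger aged value was not particular to Dab1. Dbp had 0.383 in aged and 0.288 in young cells, and the Npas2 probe sets had 0.190 and 0.149, and 0.525 and 0.242. The Arntl probe sets went the other way (0.473 and 0.482, and 0.296 and 0.328).

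**Figure D1:**
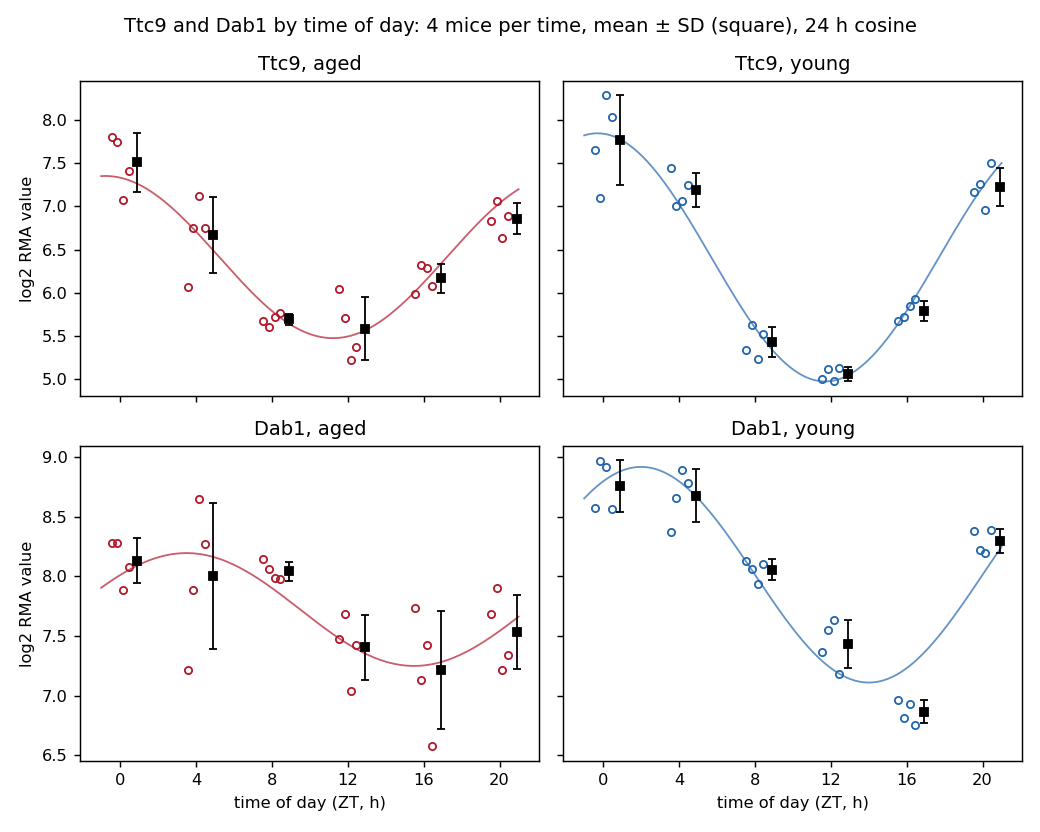
Log2 values of the main probe sets of Ttc9 (top) and Dab1 (bottom) by time of day in aged (left) and young (right) cells, with 1 open circle per mouse, squares for the mean ± SD of 4 mice and a line for the fitted 24 h cosine. The young range of Ttc9 runs from means of 5.05 to 7.77 and the aged one from 5.58 to 7.51, and the aged Dab1 arrays scatter most at ZT4 (SD 0.61) and ZT16 (SD 0.49).

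A cosine with a period of 24 h was fitted to each age, where the amplitude is the height of the peak over the mean on the log2 scale. The members were chosen on these amplitudes, so amplitudes and their differences are given as a description with no test. Ttc9 had an amplitude of 0.941 ± 0.082 in aged and 1.44 ± 0.082 in young cells (SE, n = 24 arrays each), or a peak 3.69 and 7.40 times its trough. Dab1 had 0.473 ± 0.093 in aged and 0.904 ± 0.093 in young cells, or a peak 1.93 and 3.50 times its trough. The aged amplitude was 0.652 times the young one for Ttc9 and 0.524 times for Dab1, with aged minus young differences of -0.50 ± 0.12 and -0.43 ± 0.13 (SE). Over all 12823 genes the amplitude was the lower one in aged cells in 59.8%, with a median ratio of 0.826.

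By amplitude, with each gene read from its probe set of highest mean, Ttc9 ranked 3 of 12823 genes at each age. Dab1 ranked 59 in aged and 10 in young cells. Another Npas2 probe set, 1421037_PM_at, had larger amplitudes than Ttc9 (1.27 in aged and 1.66 in young cells) but was not ranked. The clock gene Nr1d1 was not ranked either, as it had no probe set with this symbol alone. Next to Ttc9 in the aged ranking were Dbp (1.77) and Nr1d2 (0.94), and in the young ranking Per3 (1.67) and Fkbp5 (1.44). Next to Dab1 stood Dtl (0.48) and Neat1 (0.46) in aged and Tef (0.97) and Sorcs2 (0.87) in young cells. With Benjamini-Hochberg adjustment over all genes, limma's F test of a 24 h rhythm called 1.36% of genes in aged and 6.27% in young cells, both members included at both ages, which the choice of the members fixes. Of a list of 19 core clock genes, 16 were tested, and 10 were called rhythmic in aged and 9 in young cells, with median amplitudes of 0.54 and 0.57.

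Marker lists of 12 cell types or compartments were followed over the day as well. The fitted 24 h amplitudes of the list means, in which markers can offset each other, reached 0.132 in aged cells (T cell list, 4 of 5 markers with a probe set, levels 4.25 to 5.25 in aged and 4.18 to 4.59 in young arrays). In young cells they reached 0.115 (upper follicle and sebaceous gland list). Single markers reached 0.46 (Postn) and 0.42 (Cst6) in young cells, where Dab1 had 0.904. In aged cells they reached 0.28 (Cd3e) and 0.26 (H2-Ab1), where Dab1 had 0.473. No tested marker of the 12 lists was called rhythmic at either age. All genes had shares of 1.36% in aged and 6.27% in young cells, so the lack of a call among these few markers says little. With scores of 5 of these lists as covariates, the amplitude was 0.992 in aged and 1.40 in young cells for Ttc9, and 0.482 and 0.909 for Dab1. These were the suprabasal, bulge, upper follicle and sebaceous gland, fibroblast, and Langerhans and myeloid cell lists. The T cell list was not among them.

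The other probe sets of both genes gave the same order of the ages. The second Ttc9 probe set, 1436237_PM_at, had a mean of 4.26, not far above the dim limit, and an amplitude of 0.403 ± 0.084 in aged and 0.660 ± 0.084 in young cells (SE). The 5 Dab1 probe sets had amplitudes of 0.421 to 0.602 in aged and 0.729 to 1.10 in young cells, the highest at each age in 1427308_PM_at. One of them, 1435578_PM_s_at, belongs by its suffix to a class that can match transcripts of more than 1 gene, and its amplitudes of 0.550 and 0.985 lay within this range. All probe sets were read from the same arrays and are not replicates of each other.

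**Figure D2:**
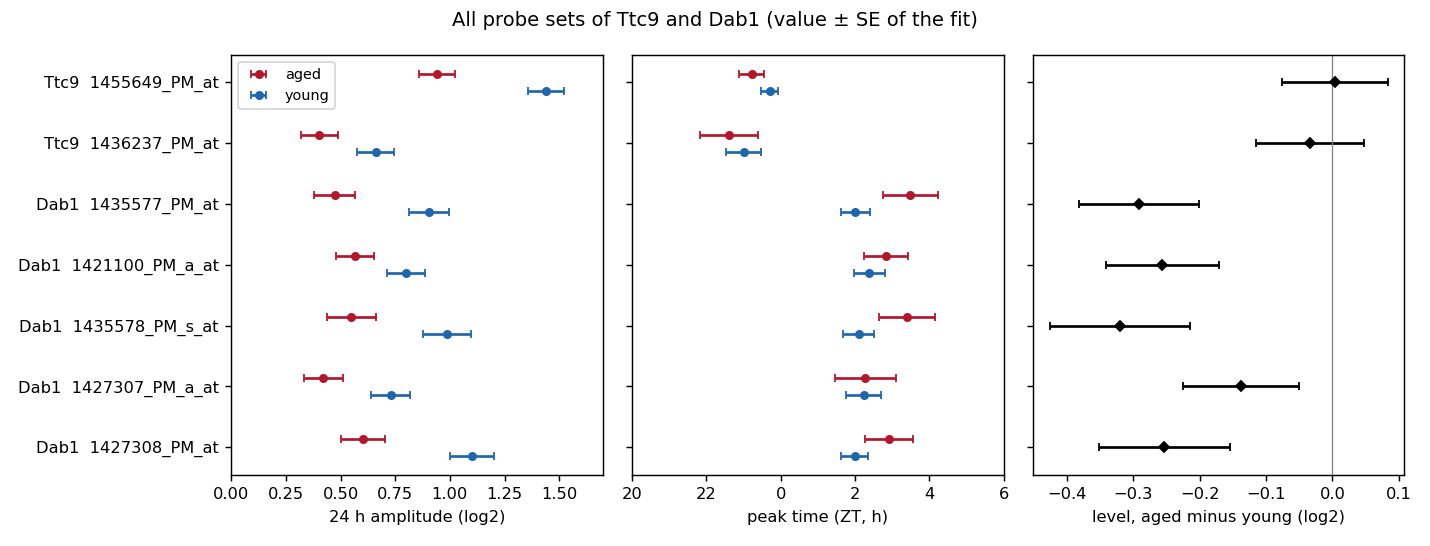
Each probe set of Ttc9 and Dab1 with its fitted 24 h amplitude (log2, left), its peak time (ZT in hours, middle) and its level in aged minus young cells (log2, right), as value ± SE. The aged amplitude is the smaller one in all 7 probe sets, the peaks of Dab1 lie between ZT1.99 and ZT3.49, and the 5 level differences of Dab1 lie between -0.32 and -0.14.

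Ttc9 peaked at ZT23.22 ± 0.33 in aged and ZT23.70 ± 0.22 in young cells (SE), close to ZT0 and nearly opposite to Dbp, which peaked at ZT10.69 ± 0.24 and ZT10.27 ± 0.22. The peak of Ttc9 thus came 11.48 ± 0.41 h before that of Dbp in aged and 10.58 ± 0.31 h before it in young cells. The second Ttc9 probe set led Dbp by 12.09 ± 0.80 h and 11.27 ± 0.51 h. Dab1 peaked later, at ZT3.49 ± 0.75 in aged and ZT2.00 ± 0.39 in young cells, 7.21 ± 0.78 h and 8.27 ± 0.43 h before Dbp. Over the 5 Dab1 probe sets the lead was 7.21 to 8.41 h in aged and 7.89 to 8.29 h in young cells. For comparison, the clock activator Npas2 (1421036_PM_at) led Dbp by 11.08 ± 0.49 h in aged and 11.01 ± 0.35 h in young cells, so Ttc9 was near it in phase and Dab1 came later. Arntl, in its probe set of highest mean, peaked at ZT20.94 ± 0.86 in aged and ZT19.81 ± 1.5 in young cells, ahead of both members. Its young rhythm in this probe set was not called (limma F test, adjusted p = 0.189). Its other probe set, 1425099_PM_a_at, peaked at ZT22.4 ± 0.81 and ZT21.95 ± 0.53, also ahead of both members but nearer to Ttc9.

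Peak time was not what the members were chosen on, so its difference between the ages was tested by 100000 permutations of the ages within each time (2-sided, 4 tests). The peak of Ttc9 differed by -0.48 h, aged minus young (95% confidence interval -1.28 to 0.32 h, n = 24 arrays each; permutation p = 0.243, adjusted p = 0.243), and that of Dab1 by 1.49 h (-0.22 to 3.20 h; permutation p = 0.025, adjusted p = 0.1). The shift of Dab1 did not pass after adjustment. Its adjusted permutation p was 0.0309 without aged ZT12 replicate 3, 0.0444 without aged ZT20 replicate 2 and 0.0271 without aged ZT4 replicate 1. In the other Dab1 probe sets the shift was 0.05 to 1.30 h, smallest in 1427307_PM_a_at. The lead over Dbp differed by 0.90 h for Ttc9 (95% confidence interval -0.14 to 1.94 h; permutation p = 0.0682, adjusted p = 0.136) and by -1.07 h for Dab1 (-2.86 to 0.73 h; permutation p = 0.102, adjusted p = 0.136), neither past the threshold. The permutations take the ages as exchangeable, amplitude included, and both fitted intervals of the peak shift span 0. They take in a peak of Ttc9 earlier by 1.28 h and one of Dab1 later by 3.20 h in aged cells.

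**Figure D3:**
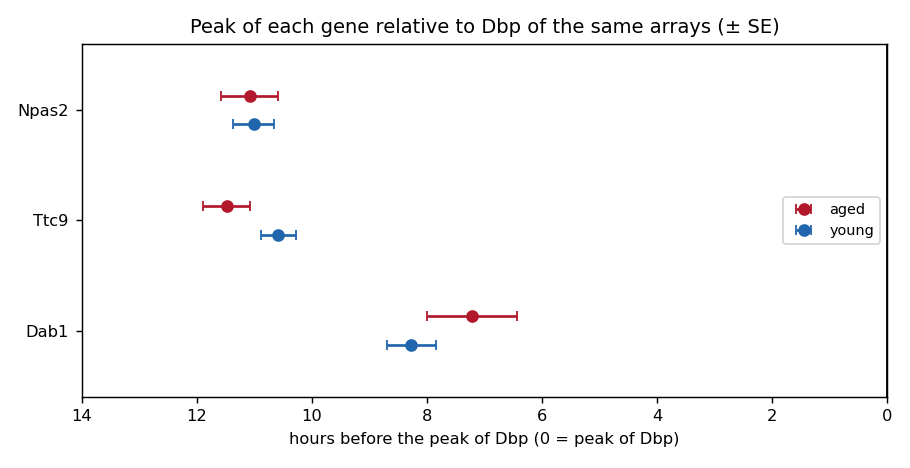
Hours by which the fitted 24 h peak of Npas2, Ttc9 and Dab1 came before that of Dbp in the same arrays, for aged and young cells (24 arrays each; points are estimates, bars are SE). Npas2 and Ttc9 sit between 10.58 and 11.48 h before Dbp, and Dab1 sits at 7.21 h in aged and 8.27 h in young cells.

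The mean level over the whole day, which is independent of the amplitude in this design, was lower in aged cells for Dab1 and did not differ past the test for Ttc9. Dab1 averaged 7.72 in aged and 8.01 in young arrays, an aged minus young difference of -0.29 ± 0.09 on the log2 scale (SE, n = 24 each; limma, adjusted p = 0.0172). Ttc9 averaged 6.41 in aged and 6.41 in young arrays (difference 0.0036 ± 0.079; limma, adjusted p = 0.982). With scores of 5 cell type lists as covariates the Ttc9 difference was -0.237 (limma, unadjusted p = 0.0383, adjusted p = 0.125). So 1 of the 2 members passed, against 18.6% of all genes in either direction and 8.73% with aged lower. All 5 Dab1 probe sets were lower in aged cells, by -0.14 to -0.32 on the log2 scale. With every probe set of the file fitted as a row of its own, 3 of the 5 passed with aged lower (limma, adjusted p = 0.0232, 0.0348 and 0.0351), against 5.66% of all probe sets. The differences at single times were most negative at ZT0, ZT4 and ZT20 (-0.62, -0.67 and -0.76), where the rhythm of young cells was high, and the aged mean was the higher one at ZT16 (by 0.35).

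The Dab1 call moved with the markers of cell types. With scores of 5 cell type lists as covariates the difference was -0.0663 (limma, adjusted p = 0.747). The upper follicle and sebaceous gland list (6 of 6 markers with a probe set, mean level 8.24 to 9.56 in aged and 8.23 to 8.85 in young arrays) was among them, and 3 of its 5 tested members were higher in aged cells. With the score of this list alone the difference of Dab1 was -0.296 (limma, adjusted p = 0.0949), against -0.292 without scores. The call changed with this score, but the size of the difference hardly did. The bulge list had 8 of 8 markers with a probe set, and 3 of its 6 tested members were lower in aged cells, where its mean level was 6.92 to 7.70, against 7.29 to 7.72 in young arrays. With its score alone the difference of Dab1 was -0.249 (adjusted p = 0.0362). Of the other lists, T cell (2 of 4 tested), basal (2 of 6) and endothelial (1 of 3) markers were called higher in aged cells. Merkel cell (1 of 3) and suprabasal (1 of 7) markers were called lower, and the other 5 lists had no call. Over all genes 9.89% were called higher and 8.73% lower in aged cells. With the suprabasal, fibroblast or Langerhans and myeloid cell score alone, Dab1 differed by -0.30, -0.335 and -0.258 (adjusted p = 0.0129, 0.00572 and 0.0235). The part of these cells in the result was not tested further. In RNA of whole samples, fewer cells of a type and less RNA per cell cannot be told apart.

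No departure from the 24 h cosine passed the test for either gene. The components beyond 24 h (12 h and 8 h, 3 degrees of freedom per age) do not overlap with those that chose the members and were tested for all genes. Ttc9 had adjusted p = 0.498 in aged and 0.540 in young cells, and Dab1 had 0.601 and 0.0672 (limma F test). Over all genes 4.74% passed in aged and 7.53% in young cells. At an unadjusted p under 0.05, neither member passed in aged cells and Dab1 alone passed in young cells (12 h amplitude 0.25, limma F test, unadjusted p = 0.0062). At this unadjusted threshold 2404 genes passed in aged and 3070 in young cells, of 12823. This test of young Dab1 passed without aged ZT16 replicate 4 (adjusted p = 0.0407), aged ZT4 replicate 1 (0.0258) or aged ZT4 replicate 3 (0.0409), which enter it through the shared estimate of the spread.

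Aged mice with more Ttc9 than the others of their time also tended to have more Dab1. After the mean of each age and time was removed, the deviations of the 2 genes had a Pearson r of 0.65 over the 24 aged mice (permutation within time, p = 0.00472, adjusted over 2 relations p = 0.00944) and a Spearman rho of 0.61 (permutation p = 0.00833, adjusted p = 0.0167). Both deviations had the same sign in 14 of 24 aged and 13 of 24 young mice. Without the 2 mice farthest from the median of Ttc9, r was 0.50 (permutation p = 0.0328, adjusted p = 0.0655), so the relation rests in part on those mice. Without aged ZT4 replicate 1 alone r was 0.484 (adjusted permutation p = 0.0505), and with the 5 cell type scores as covariates it was 0.524 (adjusted permutation p = 0.107). In young mice r was -0.20 and rho -0.17 (permutation p = 0.52 and 0.501, n = 24), and without the 2 farthest mice r was -0.22 (permutation p = 0.337). With the cell type scores the young r was 0.378 (permutation p = 0.161), of the same sign as the aged one. The difference between the ages was not tested, and a batch could not be examined since none is labelled.

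**Figure D4:**
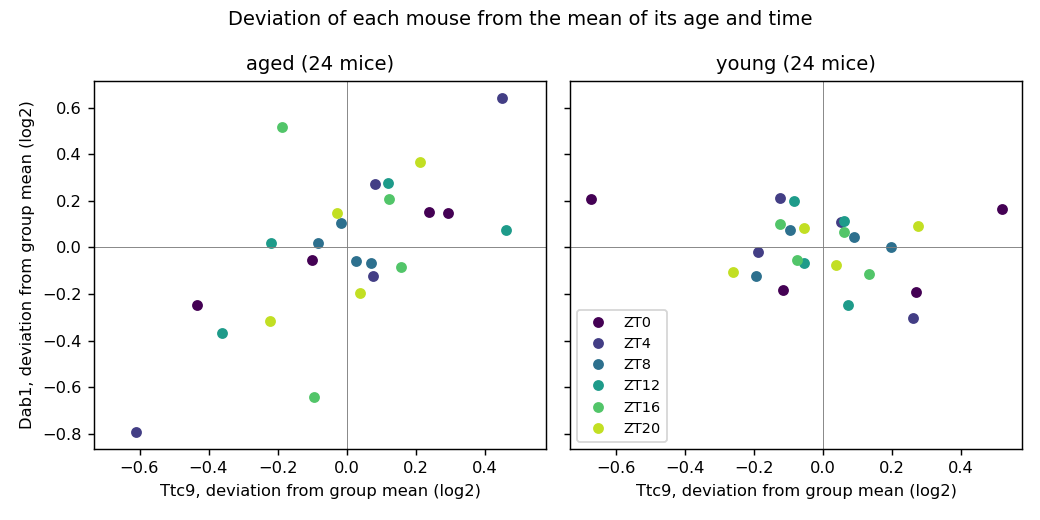
Deviation of Dab1 against that of Ttc9 (log2, each mouse minus the mean of its age and time) for 24 aged (left) and 24 young mice (right), coloured by time. The aged points run upward (r = 0.65) with 1 ZT4 mouse at the lower left corner, and the young points show no such slope (r = -0.20).

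The genes with the daily profile most like that of Ttc9 were named by Pearson r over the 12 group means, after each age was centred on its own mean. Among all tested genes with a proper name the highest r belonged to Npas2, the clock activator (0.97), Hs3st6, a heparan sulfate sulfotransferase (0.96), Lsr, a lipoprotein receptor of tricellular junctions (0.96), Pkia, an inhibitor of protein kinase A (0.95), and Mboat1, a phospholipid acyltransferase (0.95). The most opposite gene was Tef, a clock output factor related to Dbp (-0.95). Over the 48 single arrays the same r were 0.84, 0.89, 0.76, 0.81 and 0.84, and -0.89 for Tef. Hs3st6 peaked at ZT0.02 in aged and ZT0.74 in young cells, with amplitudes of 0.50 and 0.74. Npas2 had amplitudes of 0.42 and 0.61 in its probe set of highest mean, and of 1.27 and 1.66 in the other, 1421037_PM_at.

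For Dab1 the highest r belonged to Sema3d, a secreted semaphorin (0.98), Nqo2, a quinone reductase (0.95), Cdkn3, a phosphatase of cyclin-dependent kinases (0.95), Cars2, a mitochondrial cysteinyl tRNA synthetase (0.95), and Srcin1, an inhibitor of Src (0.94). The most opposite gene was the clock repressor Per2 (-0.94). Over the 48 arrays these r were 0.64, 0.70, 0.76, 0.54 and 0.77, and -0.83 for Per2. Sema3d peaked at ZT3.21 in aged and ZT2.21 in young cells, with amplitudes of 0.27 and 0.37. Between Ttc9 and Dab1 themselves r was 0.68, and Dab1 ranked 402 among the genes most like Ttc9. All these r are descriptions over means of arrays that the genes share.

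**Figure D5:**
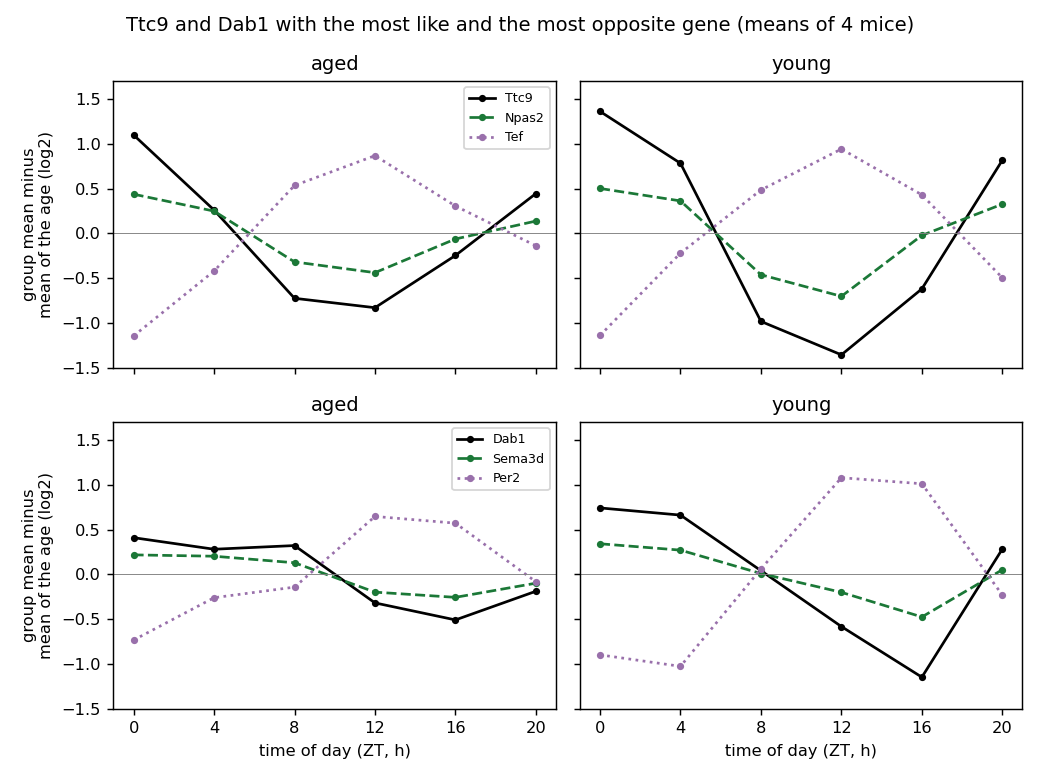
Group means of 4 mice minus the mean of their age (log2) by time of day in aged (left) and young cells (right), for Ttc9 with Npas2 and Tef (top) and Dab1 with Sema3d and Per2 (bottom). Npas2, shown by its probe set of highest mean, has the shape of Ttc9 with amplitudes of 0.42 in aged and 0.61 in young cells (1.27 and 1.66 in its other probe set), and Tef and Per2 run opposite.

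The other genes of the reelin pathway were read from a list. This list of 41 genes of the pathway, chosen from general knowledge, had 36 tested members, with reelin itself under the dim limit (Reln, 3.64 in aged and 3.66 in young arrays). Its receptors were tested: Lrp8 had a 24 h amplitude of 0.0165 in aged and 0.0554 in young cells, and Vldlr had 0.22 and 0.0811 (limma F test, adjusted p from 0.226 to 0.992). Both receptors read low: Vldlr had a mean of 4.28, not far above the dim limit, and Lrp8 one of 5.17. The kinases Fyn (0.0396 and 0.0855) and Src (0.0773 and 0.11) did not pass at either age either. In all, 1 of 36 was called rhythmic in aged cells, Dab1 itself, and 2 of 36 in young cells, Dab1 and Pik3r1, a regulatory subunit of phosphoinositide 3-kinase. Dab1 is in both counts by choice, all genes had shares of 1.36% and 6.27%, and array weights gave a young count of 5, so the counts single out nothing about the list. Pik3r1 had an amplitude of 0.38 in young cells with a peak at ZT12.77 (limma, adjusted p = 0.0435) and 0.17 in aged cells (adjusted p = 0.75). An F test of its rhythm between the ages gave adjusted p = 0.434 (limma), which did not pass. The young count was 1 of 36 without any 1 of 13 young arrays, namely all 4 of ZT0, all 4 of ZT16, replicates 1 and 2 of ZT20, 2 and 4 of ZT4 and 2 of ZT8. The median amplitude of the list was 0.0943 in aged and 0.0963 in young cells, against 0.0783 and 0.0941 over all genes. Beyond 24 h, 5 of 36 passed in aged and 5 of 36 in young cells (4.74% and 7.53% of all genes). They were Cdk5r1, Crk, Crkl, Pik3r1 and Pik3r2 in aged and Apbb1, Crk, Notch1, Pik3r1 and Pik3r2 in young cells.

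In level, 5 of the 36 reelin pathway genes were lower and 0 were higher in aged cells. Besides Dab1 these were Nck1, an adaptor (-0.31 ± 0.07, SE, limma, adjusted p = 0.00218), Socs3, an inhibitor of cytokine signalling (-0.29 ± 0.10, adjusted p = 0.0376), Dab2ip, which binds proteins of the Dab family (-0.22 ± 0.04, adjusted p = 1.63e-04), and Crkl, an adaptor that binds phosphorylated Dab1 (-0.22 ± 0.05, adjusted p = 0.00124). Over all genes 8.73% were lower and 9.89% higher in aged cells. Without any 1 of 16 arrays, 1 to 3 genes of the list were called higher: aged ZT0 replicates 1, 3 and 4, ZT4 replicate 1, ZT8 replicate 2, ZT12 replicates 1 and 2 and ZT20 replicates 2 and 4, and young ZT0 replicates 1, 2 and 4, ZT8 replicate 3, ZT12 replicate 3 and ZT16 replicates 1 and 3. The median difference of the list was -0.0093, against -0.0020 over all genes. Reln, Vldlr and Lrp8 showed no call in level (Vldlr 0.0611, adjusted p = 0.598; Lrp8 0.0903, adjusted p = 0.275).

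Of the Ttc9 family and the partners reported for it, 8 of 11 listed genes were tested. Ttc9c, its relative, had a 24 h amplitude of 0.17 in aged and 0.14 in young cells (limma F test, adjusted p = 0.553 and 0.482). The chaperone Hsp90aa1 had 0.0820 and 0.13 (adjusted p = 0.876 and 0.474). Called rhythmic were 2 of 8 in aged cells, Ttc9 and Esr1, and 1 of 8 in young cells, Ttc9 (2 of 8 without young ZT0 replicate 2), where all genes had shares of 1.36% and 6.27% and Ttc9 is in both counts by choice. Array weights gave a young count of 3, and the cell type scores an aged count of 1. Beyond 24 h, only Stip1, a co-chaperone, passed, in young cells (1 of 8, and 0 of 8 in aged cells). Over all genes 7.53% passed in young and 4.74% in aged cells. Esr1, the oestrogen receptor alpha, had an amplitude of 0.50 in aged (peak ZT4.00, adjusted p = 0.0274) and 0.12 in young cells (adjusted p = 0.781). Its rhythm was not shown to differ between the ages (limma F test of the difference, adjusted p = 0.656), and the aged count was 1 of 8 without aged ZT16 replicate 1, 2 or 3 or aged ZT4 replicate 3. In level 2 of 8 were higher in aged cells and 0 lower: Esr1 (0.42 ± 0.11, SE, adjusted p = 0.00503) and Tpm3, a tropomyosin (0.10 ± 0.03, adjusted p = 0.0107). Over all genes 9.89% were higher and 8.73% lower, and with the cell type scores 0 of the 8 were higher and 1 lower. The progesterone receptor Pgr was under the dim limit (3.59 in aged and 3.50 in young arrays).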

How the data were processed

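The deposited log2 values, 1 per probe set and array, were made by the authors with RMA, per the submitters' processing notes. The sources used here give neither its version nor whether both ages entered 1 normalisation. Per the labels' protocols, 25 ng of RNA was amplified in 17 cycles. Probe sets were named through the platform's annotation (28898 with 1 symbol, 551 with several, 15692 with none), and values were used as deposited. The model in limma 3.58.1 (R 4.3.3; lmFit, then eBayes) held a mean, cosine and sine of 24 h per age, and with 12 h and 8 h terms added for the course beyond 24 h. Benjamini-Hochberg adjustment ran over 12823 genes, with a threshold of 0.05. Errors of amplitudes, peaks and leads are delta-method SE from residuals pooled over both ages, computed in Python 3.11.15. For permutations each age was centred on its fitted mean; these take the ages as exchangeable, so unequal amplitudes can make their p smaller than the intervals imply. The permutation test of peak time was tried on simulated data with equal amplitudes at both ages, unlike the fitted amplitudes of the members. The permutation tests of the lead over Dbp and of the correlation were not tried in this way.

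Named genes were both members, Dbp, Npas2 and Arntl, for each member the 5 most like genes and the 1 most opposite, and list members past a test; neighbours in the amplitude ranking, Reln, Vldlr, Lrp8, Fyn, Src, Ttc9c, Hsp90aa1 and Pgr were named for their role or rank after values were seen. Lists covered the reelin pathway, the Ttc9 family, the core clock (counts only) and 12 cell types. The members and lists were chosen with earlier results of these data known. Mice with the same replicate number did not deviate together on average (mean residual correlation -0.00074, against 0.00091 for different numbers). Single pairs of the same number went as low as -0.46. All mice were treated as independent, which is an assumption, since this mean cannot show a batch that does not follow the replicate number.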

Additional observations from a re-analysis of the deposited data

How the results depend on the processing

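The alternatives were each array left out, a replicate block, other filters on dim genes, the mean of all probe sets, median centring, array weights, cyclic loess, a trended and robust eBayes, cell type scores, time as a factor and removal of the 4 arrays of lowest weight; single cell type scores, and cell type scores for the correlation, were chosen after seeing the data. The replicate block changed no call of the members (Dab1 level -0.292, adjusted p = 0.0202; Ttc9 level 0.00361, adjusted p = 0.983; Dab1 peak shift 1.49 h, adjusted permutation p = 0.0946), and left 1 rhythmic reelin pathway gene in young cells. The Dab1 level, -0.292 in the main fit, did not pass with the cell type scores (-0.0663) or the upper follicle score alone (-0.296, of much the same size). It stayed past the threshold without any single array (-0.314 to -0.245). The Ttc9 level, never past the threshold, was -0.0153 with the mean of probe sets, -0.0207 after median centring, -0.237 with the cell type scores, -0.0118, -0.192 and -0.0376 with the suprabasal, upper follicle and fibroblast scores, -0.0168 without the 4 arrays, and -0.0321 to 0.0343 without single arrays. The mean of probe sets gave Ttc9 amplitudes of 0.67 in aged and 1.05 in young cells, since it takes in the second probe set, whose amplitudes were 0.403 and 0.660.

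The course of young Dab1 beyond 24 h passed with array weights (12 h amplitude 0.234, adjusted p = 0.0208) and was 0.214 to 0.27 without single arrays. The Dab1 peak shift was 1.25 to 1.74 h without single arrays and did not pass in the other alternatives. The aged correlation was 0.502 without the 2 farthest mice, 0.524 with cell type scores and 0.484 to 0.79 without single arrays; the young one was 0.378 with cell type scores, 0.0995 without the 4 arrays and -0.432 to 0.055 without single arrays. The count of reelin pathway genes higher in aged cells was 1 with the lower 50% of genes left out, cyclic loess or trend and robust, 2 with the mean of probe sets or cell type scores, 3 with array weights, and 0 to 3 without single arrays. The young rhythmic count was 5 with array weights, 1 with no dim filter, cell type scores or without the 4 arrays, and 1 to 3 without single arrays. Of the Ttc9 list, 1 gene was higher in aged cells after median centring and 0 with cell type scores, which gave 1 lower and 1 rhythmic in aged cells; array weights gave 3 rhythmic in young cells, and single arrays 1 to 2 at each age. The counts of list genes beyond 24 h were not recomputed under the alternatives, and no replicate block was run for the correlation. The cause was not tested. The number of mice limits the precision.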
